A study of Mus musculus with 12 samples.

Results

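Long noncoding RNA (lncRNA) genes expressed in mouse bone marrow-derived macrophages (BMDMs) are described here across 4 conditions. Genes were chosen by measured values: a gene was taken when the deposited table gave it the biotype lncRNA and its mean reached at least 3 FPKM (fragments per kilobase of transcript and per total of mapped fragments) in at least 1 condition, and 100 of the 3925 lncRNA genes in a table of 23959 genes met this rule. The control group held untreated BMDMs labelled 0 h, the LPS group held BMDMs stimulated for 2 h with lipopolysaccharide, the ligand of TLR4, and the 2 remaining groups received cpTLR-i at 1 μM or 10 μM before the same 2 h of LPS. cpTLR-i is a cell-penetrating peptide that carries a short motif from TIRAP, an adaptor protein of TLR signaling. All cells were of wild-type genotype, were grown from bone marrow in M-CSF, and gave 3 libraries in each group. No peptide without LPS and no untreated cells at 2 h were analysed here, so LPS, the 2 h of culture and handling cannot be told apart in the comparison with control. Nothing in the labels ties the 3 libraries of a group to different mice or to different dishes, and each p-value below therefore rests on a spread between libraries that could be technical alone.

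lncRNAs are transcripts that are not known to be translated into a long protein, and they act in several ways. Some are retained in the nucleus, such as Malat1 in splicing speckles and Neat1, the scaffold of paraspeckles. Some are spliced only to release a small nucleolar RNA (snoRNA) or a microRNA from an intron or exon, and the spliced host transcripts of snoRNAs are well known substrates of nonsense-mediated decay. Others start beside or opposite a protein-coding gene and share its promoter region. In macrophages several lncRNAs are known to change quickly after TLR ligation.

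Since the rule used the FPKM means, the presence of a gene among the 100 is not a result, and a gene that passed only in the group where it was high had to differ from the other groups. Of the 100 genes, 43 were at or over 3 FPKM in all 4 groups, 7 in 3 groups, 28 in 2 groups and 22 in 1 group. Among those 22, 18 passed only in control, 2 only in LPS, 0 only in LPS plus 1 μM and 2 only in LPS plus 10 μM. For this reason p-values are given only for genes at or over 3 FPKM in both groups compared, and the rest are described by their libraries. At the rule's edge, the control means were 3.05 FPKM for Gm24175 and 3.08 for Gt(ROSA)26Sor just inside, while 2.99 for Gm20658 with 10 μM and 2.97 for 2810025M15Rik in control were just outside. Gm15564 passed through 1 library alone, with 9.03 FPKM in LPS replicate 3 and 0 in the other 11 libraries, and was the only one of the 100 left untested. It had a mean of 3.01 FPKM in LPS and is not interpreted further.

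In these mRNA libraries, lncRNA genes at the 3 FPKM minimum were fewer and lower than coding genes at that minimum. The 100 genes were 2.55% of the lncRNA genes in the table, against 56.7% of protein-coding genes at the same minimum, and their median over the 12 libraries was 4.19 FPKM against 10.9 for those coding genes. Together they took between 0.225% and 0.283% of the FPKM of a library. The median coefficient of variation between the 3 libraries of a group ranged from 7.31% in LPS to 8.94% in LPS plus 10 μM. The files hold FPKM and TPM without counts, so the sequencing depth is unknown. Macrophage identity was checked with 10 marker genes, including Lyz2 and Csf1r, which were all detected and summed to between 12443 and 15100 FPKM per library. The 10 neutrophil genes summed to 53.4 to 61.5 FPKM in control, 68.2 to 69.1 in LPS and 62.6 to 68.4 with 1 μM. The 10 μM libraries were highest, at 76.3 to 84.3 FPKM. Mean S100a9 in these groups was 5.44, 14.9, 12 and 21.0 FPKM, with Ly6g at or near 0 in all groups. Mmp8, the highest gene of this list in every group, went the other way from control. Its means were 43.3 FPKM in control, 32.7 in LPS, 33.2 with 1 μM and 32.6 with 10 μM. The neutrophil sums moved with the groups compared, and their part in the results was not tested. Other cell markers were at most 2.60 for T and NK cell genes, at most 1.21 for B cell genes and at most 0.115 for stromal genes. The erythroid and megakaryocyte list summed to between 310 and 355 FPKM, of which Pf4 alone gave 309 to 354.

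RefSeq (assembly GRCm38.p6) matched all 100 genes by gene ID and gave the biotype lncRNA to 94 of them. It listed 5 as protein-coding, 1810058I24Rik, Ndufb1-ps, 0610012G03Rik, BC029722 and Mtln, and LOC115487368 as a pseudogene. These 6 were kept, because the deposited biotype set the rule. In that annotation 35 of the 100 genes overlapped a protein-coding gene, 25 of them on the opposite strand and 10 on the same strand, 55 had one within 50 kb without overlap and 10 had none. Whether reads were counted by strand is not stated, so the reads of overlapping genes may not be separable. By position, without regard to strand, 14 genes held a snoRNA gene and 5 held a microRNA gene.

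The microRNAs held by the hosts Mir155hg, Mir22hg and F630028O10Rik are printed because their 3 hosts followed different patterns over the groups, given below. Sequences are from RefSeq, written 5′ to 3′ with the seed, bases 2 to 8, in capitals.
mmu-miR-155-5p: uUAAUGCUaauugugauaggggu
mmu-miR-22-3p: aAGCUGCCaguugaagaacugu
mmu-miR-223-3p: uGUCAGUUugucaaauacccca
The 3 seeds differ from each other, so none of these microRNAs share a seed. miR-155 is known as a microRNA of activated myeloid and lymphoid cells, and miR-223 as one of the myeloid lineage. The libraries measured the polyadenylated host transcripts and not the mature microRNAs.

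Mir155hg lies on chromosome 16 at 84713023 to 84715245 (GRCm38.p6, plus strand). It was nearly silent in control, with 0.0202, 0 and 0.0201 FPKM, and reached 27.3, 29.9 and 30.0 FPKM in LPS. With 1 μM it stayed at 27.4, 26.7 and 23.8 FPKM, and with 10 μM it was at 1.5, 2.27 and 1.23 FPKM. Thus the LPS and 10 μM libraries did not overlap and their means differed 17.4-fold, while the 1 μM libraries differed from LPS by -0.16 ± 0.14 (log2 fold change on the log2(FPKM + 0.25) scale ± SE, limma adjusted p = 0.47). F630028O10Rik, the host of miR-223 on chromosome X, ran the other way, with 4.62, 4.95 and 5.46 FPKM in control, 0.758, 0.715 and 0.763 in LPS, and 0.787, 0.756 and 0.679 with 1 μM. With 10 μM it was at 1.28, 1.41 and 1.70 FPKM, above each LPS library and below each control library. Mir22hg was highest with 10 μM, at 21.6, 22.3 and 20.5 FPKM, against 9.40, 8.92 and 9.83 in control and 12, 13.5 and 12.5 in LPS. It was higher with 10 μM than in control by 1.17 ± 0.05 (limma adjusted p = 5.5e-10) and than in LPS by 0.75 ± 0.05 (limma adjusted p = 3e-08). After median-ratio scaling, described below, the latter difference was 0.51 and no longer passed the 1.5-fold minimum, and Mir22hg was called higher with LPS than in control (0.84). The difference of F630028O10Rik between 10 μM and LPS also fell under this minimum after that scaling (0.58). It did so after quantile normalization (0.48) and at a pseudocount of 1 (0.49) as well. Dubr spans mir-6363 by position only, since mir-6363 lies on the opposite strand, and Dubr is not described as its host. It ranged from 6.54 to 10.1 FPKM over the 12 libraries. Dubr differed by -0.39 ± 0.07 between LPS and control and by 0.48 ± 0.07 between 10 μM and LPS, both under the fold minimum.

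Besides the genes described below, the most abundant of the 100 included 1810058I24Rik, Ndufb1-ps, AI662270 and BC029722. AI662270 stayed between 29.8 and 42.5 FPKM over the 12 libraries. 1810058I24Rik had 80.0, 81.5 and 80.1 FPKM in control and 57.6, 56.7 and 56.3 in LPS, and Ndufb1-ps ranged from 56.2 to 72.3 over all libraries.

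Malat1 and Neat1, neighbours on chromosome 19, were the most abundant of the 100 genes by mean in these libraries. The mRNA library kit selects against transcripts without a poly(A) tail. Forms of Malat1 and Neat1 without a tail may therefore be undercounted. Malat1 had 124, 149 and 176 FPKM in control, 134, 146 and 132 in LPS, and 127, 151 and 78.4 with 1 μM. At 10 μM the values were 117, 135 and 104. All 4 groups overlapped, and none of the 5 comparisons made here called it, with log2 fold changes from -0.33 to 0.05.

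Neat1 varied strongly between libraries of the same group. It had 38.4, 143 and 156 FPKM in control and 10.0, 70.4 and 10.1 with 1 μM, but 61.5, 64.9 and 62.2 in LPS and 127, 142 and 122 with 10 μM. Its SE of 0.64 on the log2 scale was therefore large, and neither LPS against control (-0.60, limma adjusted p = 0.39) nor 10 μM against LPS (1.04, limma adjusted p = 0.16) passed. It was higher with 10 μM than with 1 μM by 2.73 ± 0.64 (limma adjusted p = 0.002), and this call was kept without each of the 12 libraries in turn. Without 1 μM replicate 2 the fall from LPS to 1 μM passed (-2.61, limma adjusted p = 0.003), and so did the rise from LPS to 10 μM (1.04, limma adjusted p = 0.029). Neat1 is built into paraspeckles together with a set of RNA-binding proteins. The Neat1 values are per gene and do not tell its isoforms apart, so they are not a measure of paraspeckles. Whether selection for a poly(A) tail adds to the spread of Neat1 between libraries was not tested. Of 14 paraspeckle protein genes tested, 1 was higher and 0 were lower with LPS, and 0 were higher and 1 was lower with 10 μM against LPS, in both cases Hnrnph3. Over all genes tested, 11% were called higher and 35.8% lower with LPS, and 21.5% and 9.44% with 10 μM against LPS. After median-ratio scaling the list's counts were 6 higher and 0 lower with LPS, and 0 higher and 2 lower with 10 μM. The shares of all genes were taken without this scaling and do not apply to these last counts. The list's medians were 0.06 and 0.19, where all genes tested were at -0.39 and 0.22.

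**Figure D1:**
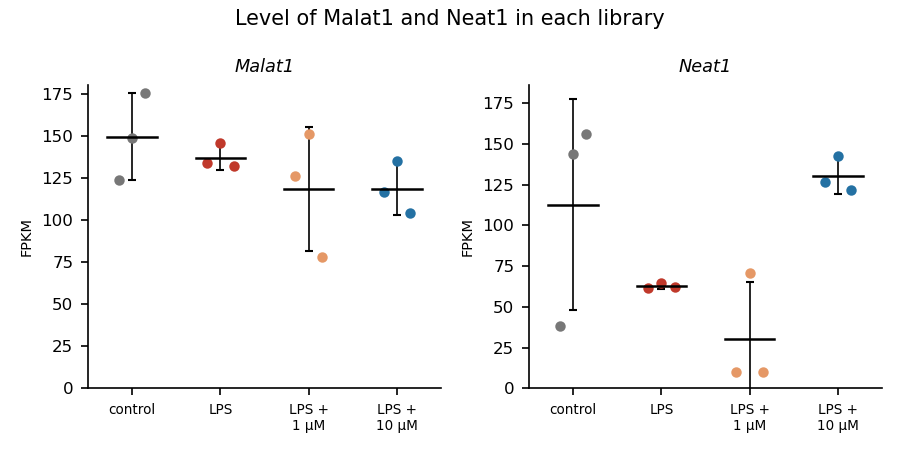
Level of Malat1 and Neat1 (FPKM, linear axes from 0) in each of the 12 libraries by group, with points for libraries, horizontal bars for means and error bars for SD (n = 3). Neat1 libraries spread from 38.4 to 156 FPKM in control and from 10.0 to 70.4 with 1 μM.

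After LPS for 2 h, 21 of the 99 lncRNA genes tested were higher and 43 were lower than in control, at a limma adjusted p under 0.05 and over 1.5-fold. Over all 12315 genes tested, 11% were called higher and 35.8% lower. Among the 47 genes at or over 3 FPKM in both groups 6 were higher and 13 lower, or 12.8% and 27.7%. The median log2 fold change was -0.51 over the lncRNA genes and -0.39 over all genes tested, so that both were below 0. In these bulk samples fewer cells with a transcript and less of it in each cell cannot be told apart. Median-ratio scaling, which sets the median change of all genes near 0, moved the split from 21 higher and 43 lower to 27 higher and 23 lower, with 44 of the 64 calls kept and 0 calls turned around. Here and below, the shares of all genes called were taken without this scaling and do not apply to counts after it.

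AW112010, known as an interferon- and LPS-responsive transcript of mouse myeloid cells, was the strongest of the raised genes at or over the minimum in both groups. It had 5.35, 4.79 and 5.59 FPKM in control and 166, 187 and 194 in LPS. This 34.8-fold difference (5.06 ± 0.08 on the log2 scale, limma adjusted p = 2.2e-15) made it the most abundant of the 100 genes in the LPS group. G530011O06Rik was at 3.59, 4.15 and 3.73 FPKM in control and 15.7, 17.6 and 18 in LPS, and rose by 2.09 ± 0.07 (limma adjusted p = 1.6e-11). Gm20559 rose from 8.05 ± 0.658 to 27.5 ± 1.32 FPKM (SD, n = 3), and its log2 fold change was 1.75 ± 0.07 (limma adjusted p = 6.9e-11). Gm36161 rose by 1.37 ± 0.07, from 14.0 ± 0.633 to 36.5 ± 0.206 FPKM (SD, n = 3, limma adjusted p = 7e-10). The snoRNA host Zfas1 rose by 1.15 ± 0.06. The last of the 6, Trmt61b, was at 0.59 and fell under the 1.5-fold minimum without control replicate 2, at 0.44, and without LPS replicates 2 or 3, at 0.57 and 0.56.

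Among the genes that reached the minimum only after LPS, A630072M18Rik went from 0.511, 0.493 and 0.683 FPKM in control to 8.70, 8.10 and 8.46 in LPS. 1110002J07Rik went from 0.572, 0.704 and 0.702 FPKM to 5.24, 6.10 and 6.17. Gm14636 went from 0.293, 0.264 and 0.323 FPKM to 4.13, 4.55 and 4.55. In each of these 3 genes the lowest LPS library was several times the highest control library. LOC115487417, Gm41235, AI504432 and E230013L22Rik had control means between 0.263 and 0.418 FPKM and LPS means between 3.15 and 4.16. Atrip-trex1, a readthrough transcript that shares exons with Trex1, the cytosolic DNA exonuclease, was at 2.87 ± 0.995 in control and 16.5 ± 0.965 FPKM in LPS (SD, n = 3). Trex1 itself stood at 18.8 ± 1.25 and 237 ± 9.58 FPKM (SD, n = 3), and how reads were divided between the entries is not stated. Morrbid, known as a lncRNA that controls the lifespan of short-lived myeloid cells, was at 2.73, 1.69 and 2.70 FPKM in control and 5.04, 5.79 and 5.04 in LPS.

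Of the lowered genes, Gm34181 had the lowest log2 fold change among those at or over the minimum in both groups, at 24.6, 24.0 and 24.4 FPKM, and had 5.12, 5.80 and 5.42 FPKM in LPS. It fell by 2.11 ± 0.12 on the log2 scale (limma adjusted p = 2.7e-09). 2410006H16Rik, which holds 3 snoRNA genes, fell by 1.73 ± 0.10, Gm20605 by 1.40 ± 0.07 and Dnmt3aos, opposite the DNA methyltransferase gene Dnmt3a, by 1.13 ± 0.12 (limma adjusted p from 4.3e-10 to 9.1e-07). Tug1, a widely expressed nuclear and cytoplasmic lncRNA, fell by 0.84 ± 0.06, and 2900097C17Rik, which RefSeq names Norad and which is known to bind Pumilio proteins, fell by 0.77 ± 0.04. AU022793 was at 11.1, 11.5 and 12.4 FPKM in control and 1.69, 1.51 and 1.48 in LPS. Gm13391 went from a mean of 6.43 to 0.913 FPKM, LOC115487368 from 7.64 to 0.873 and 9130221H12Rik from 3.76 to 0.92. After median-ratio scaling 8 of the 13 lowered genes at or over the minimum in both groups were under the threshold, namely 2900097C17Rik (-0.35), Gas5 (-0.52), 0610012G03Rik (-0.53), Oip5os1 (-0.28), Tug1 (-0.42), Snhg3 (-0.49), Tnfsf13os (-0.45) and Gm40315 (-0.26), while Gm34181, 2410006H16Rik, Gm20605, Dnmt3aos and Gm42312 were still called.

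**Figure D2:**
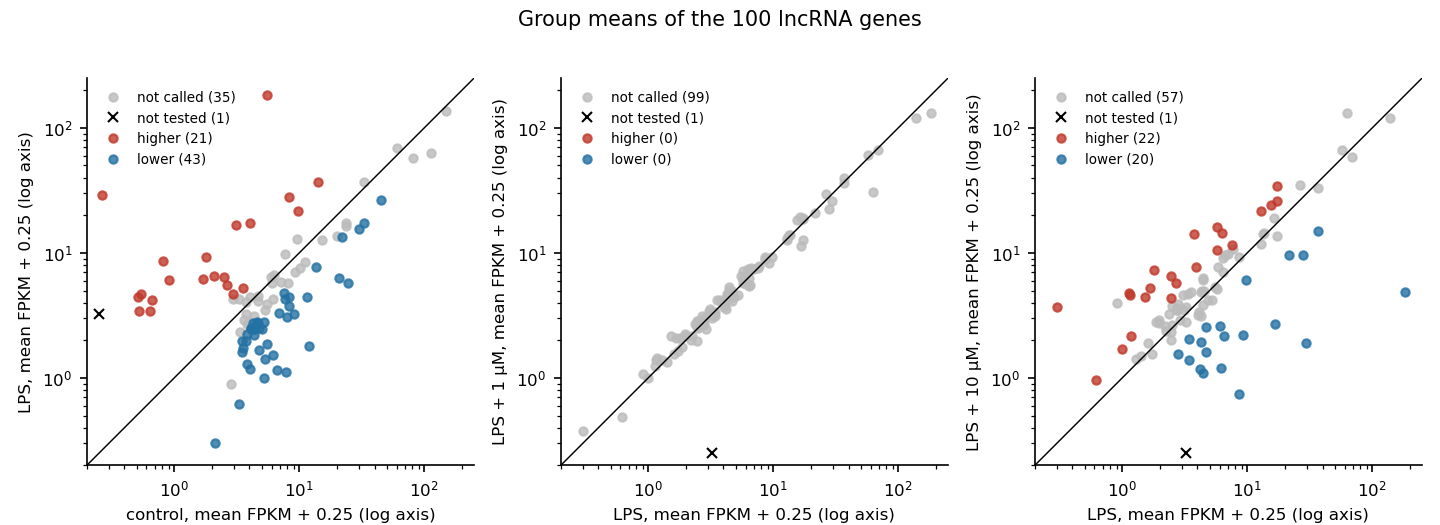
Group means of the 100 lncRNA genes (FPKM + 0.25, log axes), for control and LPS, LPS and LPS plus 1 μM, and LPS and LPS plus 10 μM, with 1 point per gene coloured by its limma call (99 genes tested) and the line of equal means. Points lie close to the line for 1 μM, where 0 genes were called, and away from it on both sides for LPS and for 10 μM.

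With 10 μM cpTLR-i, 22 of the 99 lncRNA genes were higher and 20 lower than in LPS, against 21.5% higher and 9.44% lower over all genes tested. Of the 46 genes at or over 3 FPKM in both groups, 10 were higher and 5 lower, or 21.7% and 10.9%, against the same shares of all genes. The median log2 fold change was 0.18 over the lncRNA genes and 0.22 over all genes. After median-ratio scaling the counts were 16 higher and 23 lower. This comparison shares the LPS libraries with the previous one, so the values are set side by side and no overlap between the 2 sets of calls is drawn.

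AW112010 had 4.71, 4.35 and 4.82 FPKM with 10 μM, 39.5-fold under LPS (-5.23 ± 0.08, limma adjusted p = 7.9e-15). The 10 μM and control libraries overlapped, and 10 μM differed from control by -0.17 ± 0.08 (limma adjusted p = 0.062). Gm20559 was at 8.26, 9.62 and 10.0 FPKM with 10 μM (-1.55 ± 0.07 against LPS, limma adjusted p = 3.9e-10), and Gm36161 at 13.0, 14.7 and 16.7 (-1.30 ± 0.07, limma adjusted p = 2e-09). Zfas1 fell by 1.16 ± 0.06 and Zeb2os, opposite the transcription factor gene Zeb2, by 0.67 ± 0.09. A630072M18Rik was at 0.541, 0.428 and 0.501 FPKM, 17.2-fold under its LPS mean. The means of 2500002B13Rik, 6530402F18Rik and Gdap10 were 4.59-fold, 6.22-fold and 3.33-fold lower than in LPS.

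The genes higher with 10 μM than in LPS included Dnmt3aos, with 12.2, 13.4 and 15.9 FPKM against 3.14, 3.85 and 3.58 in LPS. It rose by 1.89 ± 0.12 (limma adjusted p = 7.8e-09). Snhg1 rose by 1.5 ± 0.09, 2410006H16Rik by 1.19 ± 0.10, Gas5 by 1.01 ± 0.07, 5830432E09Rik by 0.97 ± 0.07 and Gm34181 by 0.87 ± 0.12 (limma adjusted p from 6.5e-09 to 2.9e-05). AU022793 was at 6.24, 6.85 and 7.91 FPKM, each above the LPS and below the control libraries. LOC115488151 had 3.28, 3.84 and 3.28 FPKM with 10 μM, 0.0488, 0.0421 and 0.0679 in LPS and 1.81, 1.80 and 2.04 in control. LOC115489488 had a mean of 1.41 FPKM in LPS and 5.01 with 10 μM. LOC115488151 lies on the same strand within the span of Lhfpl2, and reads of the 2 genes may not be separable. The calls of 0610012G03Rik (0.64), 1110038B12Rik (0.59) and Snhg6 (0.63) were close to the fold minimum. They were lost after median-ratio scaling, with 0.40, 0.35 and 0.40. The call of 0610012G03Rik was also lost without LPS replicate 2 (0.57) or 10 μM replicate 1 (0.55), that of 1110038B12Rik without the same libraries (0.56 and 0.57), and that of Snhg6 without LPS replicate 3 (0.57).

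**Figure D3:**
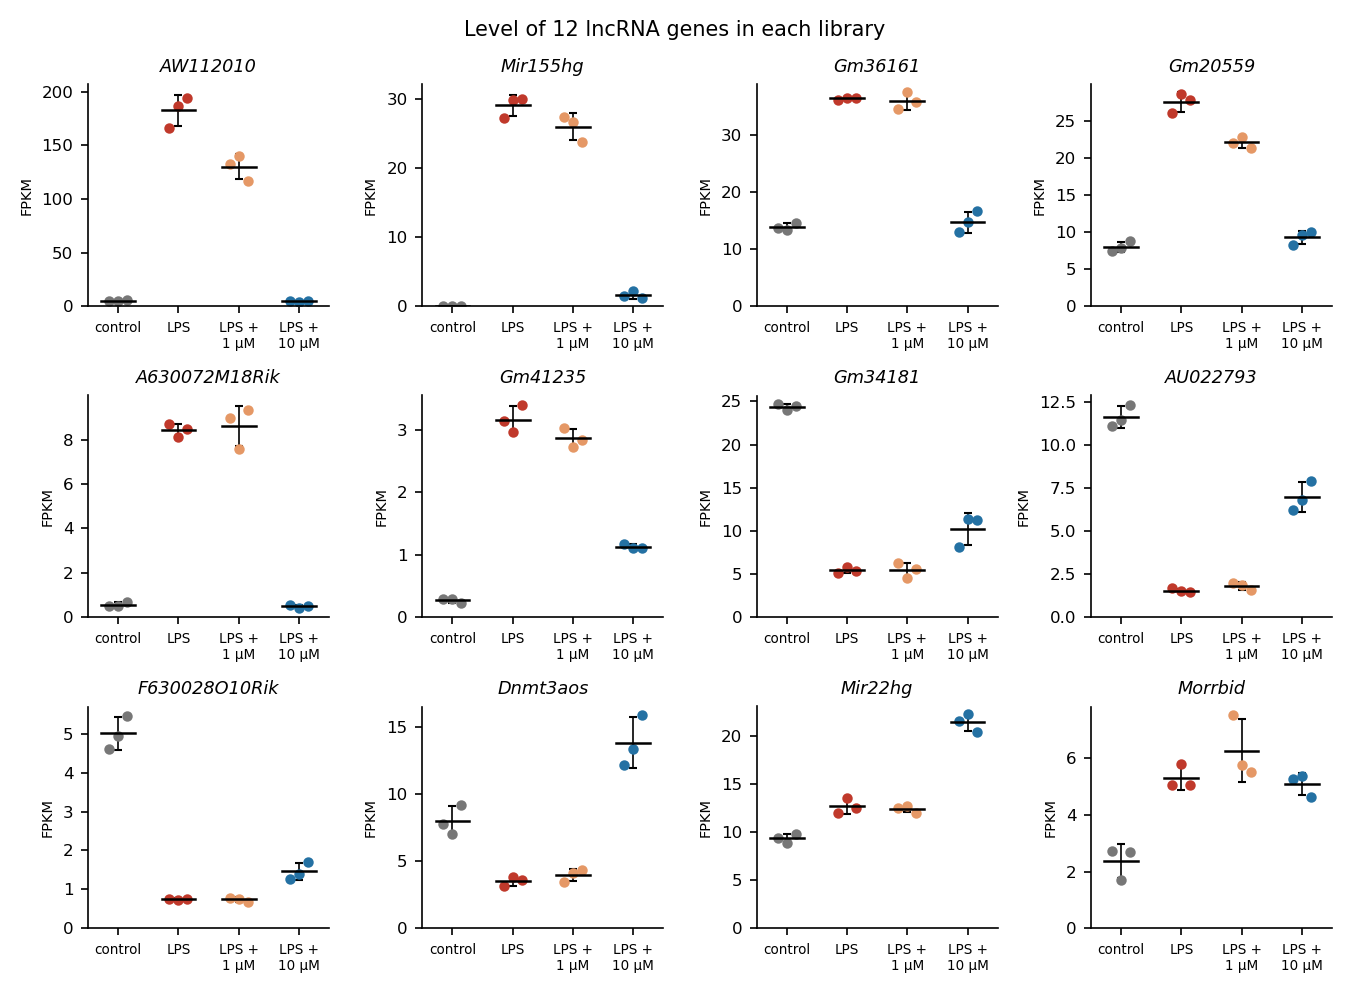
Level (FPKM, linear axes from 0, a scale of its own in each panel) of 12 lncRNA genes in each of the 12 libraries by group, with points for libraries, horizontal bars for means and error bars for SD (n = 3). AW112010 reached 166 to 194 FPKM in LPS and 4.35 to 4.82 with 10 μM, whereas Mir22hg was highest with 10 μM at 20.5 to 22.3.

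With 1 μM cpTLR-i, 0 of the 99 lncRNA genes were higher and 0 lower than in LPS by limma, where 0.495% and 0.625% of all genes tested were called. At an unadjusted p under 0.05 with the same fold, 0 were higher and 1 lower, and that gene was Neat1. The median log2 fold change was 0.03 over the lncRNA genes and 0.06 over all genes. In 62 of the 100 genes the 1 μM mean lay between the LPS and the 10 μM means. That count takes in genes without a call in any comparison, and its share over all genes was not taken. Without a fold minimum 5 genes were higher and 6 lower at a limma adjusted p under 0.05, against 14.6% higher and 4.36% lower over all genes tested. AW112010 was at 133, 140 and 117 FPKM with 1 μM, below each LPS library (-0.49 ± 0.08, limma adjusted p = 0.0011). G530011O06Rik was at 12.7, 12.2 and 12.2 FPKM (-0.46 ± 0.07, limma adjusted p = 0.0014) and Gm20559 at 22.1, 22.9 and 21.4 (-0.31 ± 0.07, limma adjusted p = 0.0097). Atrip-trex1 (-0.56 ± 0.18, limma adjusted p = 0.045), Gdap10 and LOC108168645 were the other 3 lower genes. Snhg1 (0.31 ± 0.09, limma adjusted p = 0.03), BC029722 and 2900097C17Rik were among the 5 higher. The 1 μM and LPS libraries did not overlap in 23 of the 100 genes, 15 higher and 8 lower, against 30.2% of all genes tested higher and 8.31% lower.

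Between the doses, 23 lncRNA genes were higher and 21 lower with 10 μM than with 1 μM, against 15.9% higher and 9.05% lower over all genes tested. Of the 47 genes at or over 3 FPKM in both groups, 10 were higher and 5 lower. The 5 lower genes were AW112010 (-4.74 ± 0.08), Gm36161 (-1.28 ± 0.07), Gm20559 (-1.23 ± 0.07), Zfas1 (-1.11 ± 0.06) and Zeb2os (-0.59 ± 0.09). The call of Zeb2os was lost without 1 μM replicate 1, at -0.51, and without 10 μM replicates 1 or 2, at -0.57 and -0.58. Mir155hg had a mean of 26.0 FPKM with 1 μM and 1.67 with 10 μM.

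Set against control, LPS plus 10 μM left 16 lncRNA genes higher and 25 lower, where 8.57% and 17.1% of all genes tested were called. At or over the minimum in both groups stood 60 genes, of which 6 were higher and 9 lower, or 10% and 15%. G530011O06Rik had 11.9, 13.4 and 14.5 FPKM with 10 μM, and was above control by 1.73 ± 0.07 (limma adjusted p = 3.6e-10). Its difference from LPS was -0.36 ± 0.07 (limma adjusted p = 0.0007), under the fold minimum, and was called after median-ratio scaling (-0.60). LOC108168645, on chromosome Y, had 2.14, 2.33 and 2.22 FPKM in control, 6.03, 6.07 and 6.23 in LPS and 7.95, 9.06 and 9.6 with 10 μM. Morrbid was at 5.26, 5.37 and 4.64 FPKM with 10 μM, overlapping its LPS libraries, from which it differed by -0.05 ± 0.15 (limma adjusted p = 0.77). Gm14636 and E230013L22Rik lay between their control and LPS libraries, with means of 2.28 and 1.80 FPKM. Among the lower genes, Gm46162 differed from control by -1.32 ± 0.09 (limma adjusted p = 2.8e-08), Gm34181 by -1.25 ± 0.12 and Gm20605 by -0.95 ± 0.07. 2610507I01Rik had 4.78, 4.88 and 5.64 FPKM in control, 1.12, 1.21 and 1.16 in LPS and 1.05, 1.01 and 1.65 with 10 μM, so that the LPS and 10 μM libraries overlapped. Cep83os, Gm5086, 2310001H17Rik and Gm26740 were also lower than in control in every 10 μM library. Gm13710 was lowest with 10 μM, at 1.33, 1.16 and 1.43 FPKM, against 2.56, 2.84 and 2.20 in LPS and 5.42, 4.79 and 4.73 in control.

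The snoRNA host genes were the list with most members. Their introns carry the snoRNAs that guide chemical modification of ribosomal RNA. The list was made by symbol, and RefSeq places no snoRNA gene within Snhg20, which holds the microRNA gene Mir6516. By position 1110038B12Rik, 2410006H16Rik, AI506816 and 5033421B08Rik also hold a snoRNA gene and are not on the list. After median-ratio scaling 5033421B08Rik was called higher (1.05) and 2410006H16Rik lower (-1.32) with LPS. 1110038B12Rik (-0.02) and AI506816 (0.35) were not called there. Of a list of 22 host genes, 21 were in the table, 17 were tested and 11 were among the 100. With LPS 9 of the 17 were lower and 1, Zfas1, was higher, where 35.8% and 11% of all genes tested were called. The median log2 fold change was -0.80 against -0.39 over all genes. After median-ratio scaling 5 were lower and 1 higher, and after quantile normalization 4 and 1. With 10 μM against LPS 12 of the 17 were higher and 1, Zfas1, was lower, where 21.5% and 9.44% of all genes tested were called. The median was 1.10 against 0.22 over all genes. The counts were 11 and 1 after median-ratio scaling and 10 and 1 after quantile normalization. With 1 μM against LPS 0 were called, with a median of 0.21 against 0.06. The 10 μM group held 5 of them above control and 0 below, where 8.57% and 17.1% of all genes tested were called.

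Gas5, a host of several snoRNAs whose own transcript is a known target of nonsense-mediated decay, had 31.3, 34.0 and 32.6 FPKM in control and 14.7, 18.2 and 18 in LPS. With 10 μM it was at 34.9, 33.6 and 34.1 FPKM and differed from control by 0.07 ± 0.07 (limma adjusted p = 0.4). Snhg1 had 8.11, 8.63 and 6.82 FPKM in control, 6.28, 4.95 and 5.26 in LPS and 15.4, 16.6 and 15.7 with 10 μM. Its 10 μM libraries were above control by 1.00 ± 0.09 (limma adjusted p = 5.6e-07). Snhg12 had 4.90, 4.01 and 5.58 FPKM in control, 2.40, 2.18 and 1.99 in LPS and 6.20, 6.25 and 6.30 with 10 μM. Snhg20 had 4.96, 7.05 and 5.90 FPKM in control, 1.06, 1.36 and 1.38 in LPS and 4.39, 3.83 and 4.34 with 10 μM. In Gas5, Snhg1, Snhg12 and Snhg20 the LPS and 10 μM libraries were fully apart. Snhg8 stayed between 5.04 and 7.49 FPKM over the 12 libraries, and its differences were from -0.03 to 0.22. Zfas1 was the only list gene called higher with LPS and the only one called lower with 10 μM against LPS, with 9.76, 9.66 and 9.0 FPKM in control, 22.3, 20.9 and 20.8 in LPS and 9.41, 9.61 and 9.30 with 10 μM. Zfas1 overlaps Znfx1, an interferon-inducible RNA helicase gene, on the opposite strand. Znfx1 went from 27.0 ± 2.12 to 90.9 ± 2.96 and 30.0 ± 0.328 FPKM (SD, n = 3) in the same 3 groups. The calls of Snhg5 (0.60) and Snhg15 (0.63) against control were close to the fold minimum. Snhg5 was at 0.53 without control replicate 1 and 0.56 without 10 μM replicate 2, and Snhg15 at 0.55, 0.56 and 0.57 without control replicate 1, control replicate 3 and 10 μM replicate 1.

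**Figure D4:**
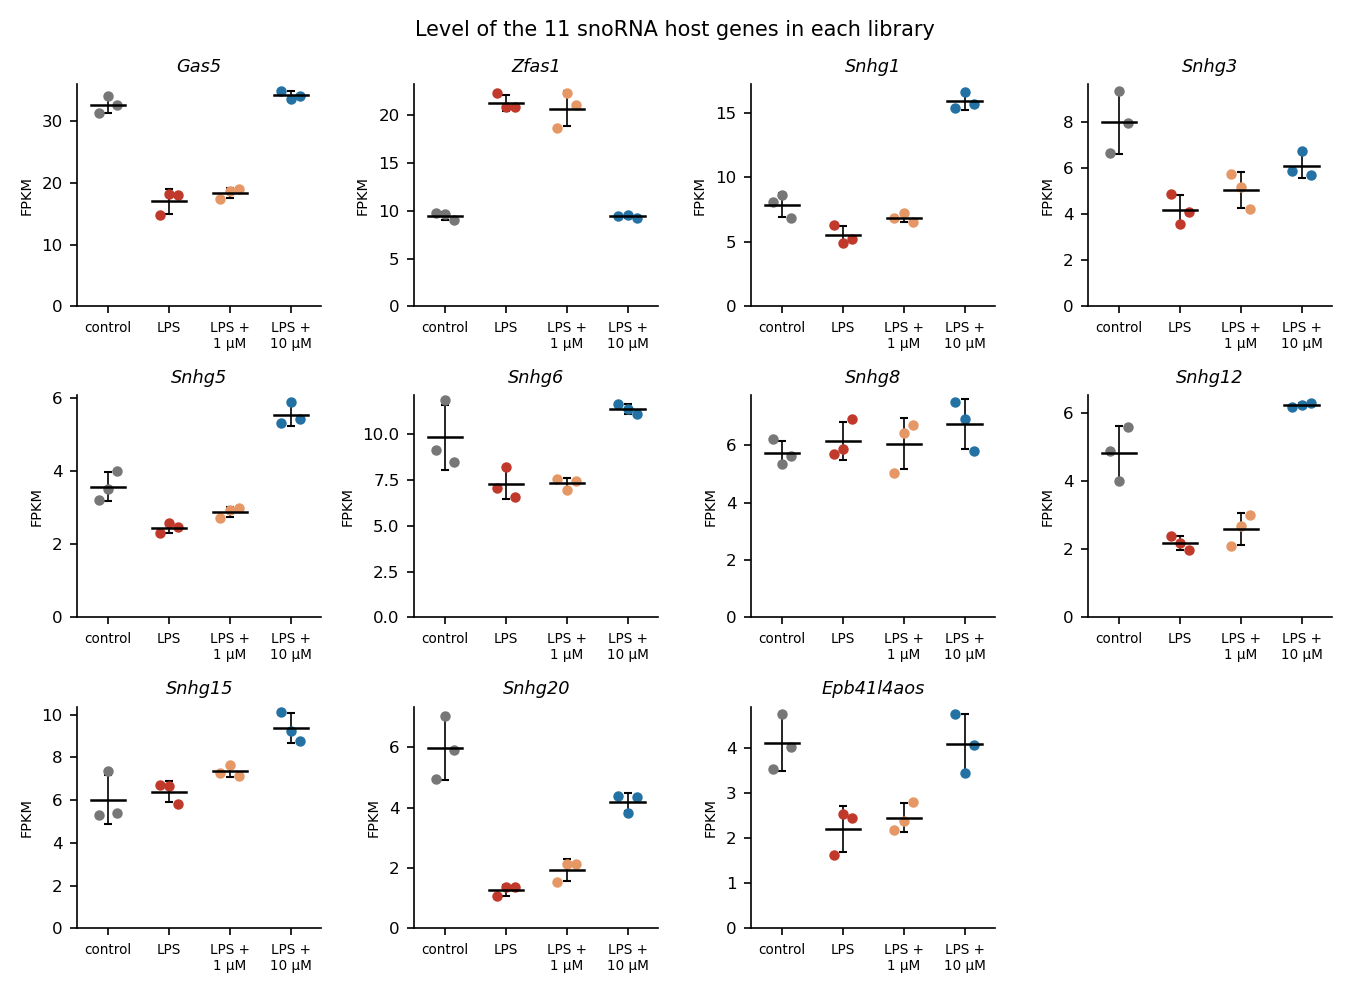
Level (FPKM, linear axes from 0, a scale of its own in each panel) of the 11 genes from the snoRNA host list, made by symbol, in each of the 12 libraries by group, with points for libraries, horizontal bars for means and error bars for SD (n = 3). Gas5 stood at 14.7 to 18.2 FPKM in LPS and 33.6 to 34.9 with 10 μM, while Zfas1 was highest in LPS and 1 μM.

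Genes of the decay machinery that acts on such transcripts were measured in the same libraries. These lists are read against the shares of all genes, 11% higher and 35.8% lower with LPS, and 21.5% higher and 9.44% lower with 10 μM against LPS. Of 15 nonsense-mediated decay factor genes, 1 was higher and 3 were lower with LPS, and 4 were higher and 0 lower with 10 μM against LPS. After median-ratio scaling these were 3 and 2, and 3 and 0. The list's median log2 fold changes were -0.21 and 0.31, against -0.39 and 0.22 over all genes. Of 16 nuclear RNA exosome and targeting genes tested, 1 was higher and 5 were lower with LPS, or 1 and 2 after median-ratio scaling. With 10 μM against LPS, 6 exosome genes were higher and 1 lower, which became 1 and 1 after median-ratio scaling. The medians were -0.41 and 0.51. Rbm7, a subunit of the nuclear exosome targeting complex, was the exosome gene raised by LPS (1.18) and lowered by 10 μM (-0.95). The part of these genes in the levels of the host transcripts was not tested.

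Of 17 lncRNAs with a described part in innate immune cells, 13 were tested and 8 were among the 100. With LPS 5 were higher and 5 lower. Against LPS, the higher dose gave 3 higher and 4 lower. After median-ratio scaling these counts were 5 and 4, and 2 and 4. The medians of the list were -0.39 with LPS and -0.08 with 10 μM against LPS, where all genes were at -0.39 and 0.22. For this list and those below, the shares of all genes called were 11% higher and 35.8% lower with LPS. They were 21.5% higher and 9.44% lower with 10 μM against LPS. The higher ones with LPS were Mir155hg, AW112010, Morrbid and, below the minimum for the 100, Ptgs2os2 (2.84) and Gm16685 (1.58). Ptgs2os2, known as lincRNA-Cox2, lies beside the cyclooxygenase gene Ptgs2, and was lower with 10 μM than in LPS (-1.69). The lower ones with LPS were Dnmt3aos, Gas5 and, outside the 100, Hotairm1, Ttc39aos1 and Trp53cor1. Of 11 nuclear and chromatin lncRNAs tested, 0 were higher and 4 lower with LPS, while 4 were higher and 0 lower with 10 μM against LPS. After median-ratio scaling the counts were 1 and 1, and 4 and 0. The medians were -0.26 and 0.48. The 4 higher genes, all outside the 100, were Airn (1.03), Pvt1 (1.05), Rmrp (1.34) and Rn7sk (0.84). Rmrp and Rn7sk are known as transcripts without a poly(A) tail, which the mRNA library kit selects against. Of 5 p53-linked lncRNAs tested, 0 were higher and 4 lower with LPS. With 10 μM against LPS 2 were higher, Gas5 and, outside the 100, Pvt1. After median-ratio scaling 1 of the 5 was lower with LPS. The medians were -0.84 and 1.01. Of 5 microRNA host genes on the list tested, 1 was higher and 1 lower with LPS. The lower was Mir23a, outside the 100, at -1.75.

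Each lncRNA gene was set beside its overlapping or nearest protein-coding gene within 50 kb. Both partners were tested for 77 of the 100. Of the 14 genes higher with LPS that had a tested neighbour, 11 had a neighbour called higher and 1 a neighbour called lower, and of the 35 lower genes, 15 had a neighbour called lower and 3 a neighbour called higher. Among all protein-coding genes at the 3 FPKM minimum 11.5% were called higher and 33.3% lower. Across the 77 pairs, the log2 fold changes had a Pearson r of 0.40 for LPS against control and 0.45 for 10 μM against LPS. The pairs are genes of the same libraries and not independent replicates. For the 30 overlapping pairs r was 0.51 and 0.58, and for the 47 pairs without overlap 0.32 and 0.36. Overlapping pairs may share reads, since the use of strand is not stated.

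In several pairs, chosen after their values were seen, both genes moved the same way. Gm41235 lies opposite Acod1, the gene of the enzyme that makes itaconate. Gm41235 had 0.293, 0.295 and 0.222 FPKM in control, 3.13, 2.96 and 3.39 in LPS and 1.18, 1.10 and 1.11 with 10 μM, and Acod1 had means of 2.20, 976 and 149 FPKM. Dnmt3a went with Dnmt3aos, at 37.0 ± 0.42 in control, 10.1 ± 0.26 in LPS and 38.7 ± 3.1 FPKM with 10 μM (SD, n = 3). Samd9l, an interferon-inducible gene near Gm20559, was at 13.7 ± 0.97, 83.5 ± 5.0 and 14.8 ± 1.2 FPKM in control, LPS and 10 μM. Lhfpl2 was at 102 ± 3.0, 10.3 ± 1.9 and 166 ± 8.6 FPKM in the same order, like LOC115488151.

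Elsewhere the sizes or the directions differed. Nfkb2, the NF-κB p100 gene, rose by 3.59 with LPS and fell by 1.57 with 10 μM, to 55.3 ± 2.77 FPKM (SD, n = 3) and above its control mean of 13.4. 4833438C02Rik on its opposite strand was at 2.87, 3.02 and 3.17 FPKM in control, 4.04, 4.16 and 3.87 in LPS and 1.34, 1.85 and 1.84 with 10 μM. It was thus highest in LPS like Nfkb2, but lower with 10 μM than in control. Mid1 had means of 4.10, 8.37 and 4.62 FPKM in control, LPS and 10 μM, and G530011O06Rik opposite to it had 3.82, 17.1 and 13.3. Rab20, a small GTPase gene, rose by 1.55 with LPS and from LPS to 10 μM by 0.99, while E230013L22Rik opposite to it had means of 3.15 FPKM in LPS and 1.80 with 10 μM. This last pair went in opposite directions from LPS to 10 μM. Hspa1b, a heat shock protein gene near 1110038B12Rik, rose by 3.85 with LPS, where 1110038B12Rik was at -0.44, or -0.02 after median-ratio scaling.

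**Figure D5:**
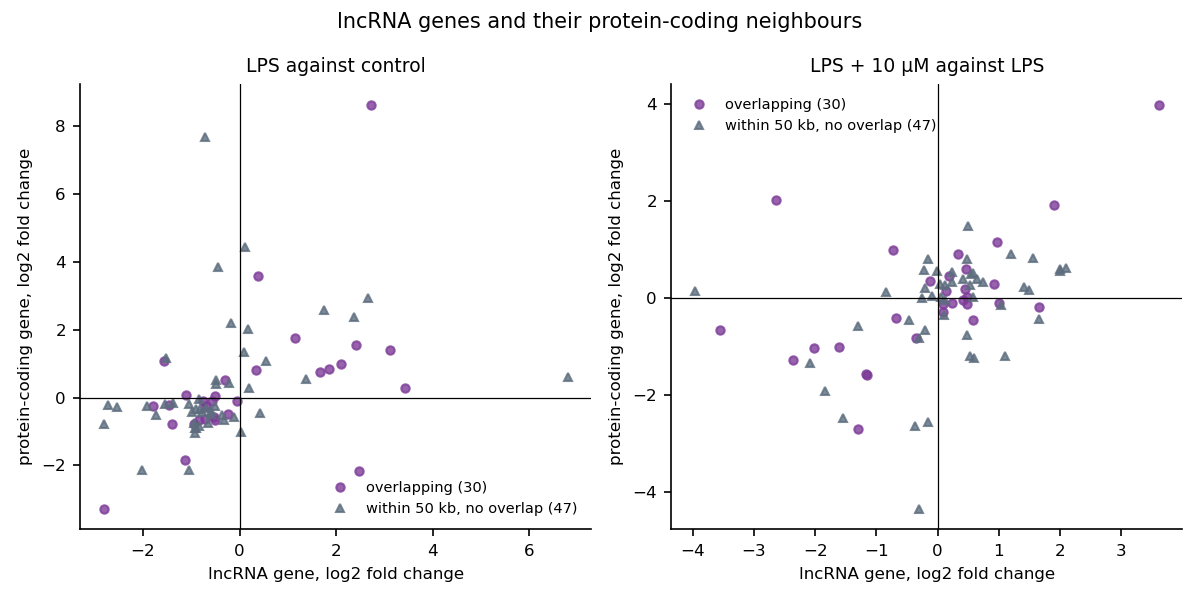
Log2 fold change of each lncRNA gene (horizontal axis) and of its overlapping or nearest protein-coding gene (vertical axis), on the log2(FPKM + 0.25) scale, for LPS against control and for LPS plus 10 μM against LPS, with circles for 30 overlapping pairs and triangles for 47 pairs without overlap. Pearson r was 0.40 and 0.45 over the 77 pairs.

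Promoter sequences from RefSeq, 250 bases before to 50 after an annotated start, were found for 83 of the 100 genes as 104 promoters. They were searched on both strands for 4 motifs. Since starts of a gene can lie a base apart, matches are counted by gene. The AP-1 motif TGANTCA was in 6 of the 83 genes, or 7.23%, against 8.97% of all 27025 genes with a promoter, in 3 of the 20 higher with LPS and in 2 of the 37 lower with LPS. The NF-κB consensus was in 9 of the 83, or 10.8%, against 9.55%, in 3 of the 20 and in 3 of the 37. The interferon-stimulated response element core was in 7, or 8.43%, against 3.99%, in 2 of the 20 and in 3 of the 37. The cAMP response element TGACGTCA was in 2, Gas5 and Snhg15, or 2.41%, against 2.03%. A match is a description of the letters and not a bound site. The windows of 25 bases on each side are printed for the promoters of AW112010 and A630072M18Rik, with the NF-κB match in capitals, and of Morrbid and 1110002J07Rik, with the AP-1 match in capitals, because these genes were higher with LPS and differed in their level with 10 μM. They are from GRCm38.p6 and read 5′ to 3′ on the gene's strand, chr19:11050602-11050661 (minus), chr5:20950849-20950908 (plus), chr2:128429321-128429377 (minus) and chr10:66920423-66920479 (minus).
AW112010: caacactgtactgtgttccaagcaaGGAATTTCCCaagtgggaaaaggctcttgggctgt
A630072M18Rik: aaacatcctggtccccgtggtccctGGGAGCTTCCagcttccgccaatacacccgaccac
Morrbid: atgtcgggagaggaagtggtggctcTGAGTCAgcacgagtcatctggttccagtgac
1110002J07Rik: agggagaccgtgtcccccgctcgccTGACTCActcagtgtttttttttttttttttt
Relative to the annotated start the matches begin at base -70 in AW112010, -115 in A630072M18Rik, -1 in Morrbid and -70 in 1110002J07Rik. The first 2 genes were at or near their control levels with 10 μM, 1110002J07Rik was at 2.34, 2.56 and 2.22 FPKM between its control and LPS libraries, and Morrbid overlapped LPS. These genes were picked with their values known. 6530402F18Rik, with an NF-κB match, and 5033421B08Rik, with an AP-1 match, were also higher with LPS and are not printed. A link between motif and level with 10 μM was not tested.

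2 genes were too variable to place. Bc1, a short transcript of 154 bases, ranged from 3.51 to 9.38 FPKM within control alone. Gm20716 ranged from 0.213 to 5.89 FPKM in control and from 0 to 6.0 with 10 μM.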

How the data were processed

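BMDM libraries were made with a TruSeq mRNA kit, called Stranded in the labels and Standard in the study's methods, so whether they keep strand is unclear. Reads were, per the labels and those methods, aligned to mm10 with HISAT2 and quantified with StringTie. The authors deposited FPKM and, as a second unit, TPM per gene with RefSeq gene IDs, and no counts. Whether strand was used, and any filter, is not given in the sources used here. All 12 libraries were fitted together with limma 3.58.1 (R 4.3.3; lmFit and eBayes with trend) on log2(FPKM + 0.25), for the 12315 genes that 3 or more libraries held at 0.5 FPKM or above. P-values were two-sided and Benjamini-Hochberg adjusted over all genes tested, and a call needed an adjusted p under 0.05 and over 1.5-fold. The pseudocount understates changes of low genes. The fit was tested on simulated data. Alternatives were 10 settings (TPM, pseudocounts, filters, scalings, a replicate block, the minimum and the call rule), and each of the 12 libraries was left out in turn. Named are the 12 genes highest in mean FPKM, up to 10 highest and 10 lowest called genes without overlap per comparison, called list genes, genes at the rule's edge and coding neighbours; other genes, and the motifs, were chosen after their values were seen. Genes and lists were chosen with earlier results of these data known.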

Additional observations from a re-analysis of the deposited data

How the results depend on the processing

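No called gene changed sign in any alternative. Counts of lower genes with LPS fell from 43 to 23 after median-ratio scaling, 22 after quantile normalization and 24 at a member minimum of 5 FPKM. Median-ratio scaling moved the median of all genes with LPS from -0.39 to 0.00, and 44 of the 64 calls were kept. With 1 μM against LPS, 1 gene (Atrip-trex1) was lower with TPM and 1 after median-ratio scaling, and without a fold minimum 5 were higher and 6 lower. Leaving out 1 library gave 0 to 1 higher (Snhg20, without 1 μM replicate 1) and 0 to 1 lower (Neat1, without 1 μM replicate 2). At a minimum of 5 FPKM, the lower genes were 12 for 10 μM against LPS, 12 against 1 μM and 12 against control, and 10 were higher against control; fewer genes enter there by construction. Without a fold minimum, 44 were higher for 10 μM against LPS, 42 against 1 μM, and 52 were lower against control. The shares of all genes passing without a fold minimum were not taken for these comparisons, so these counts show nothing particular to the lncRNA genes. Leaving out each library gave 20 to 21 higher and 43 to 46 lower with LPS, 21 to 25 and 20 for 10 μM against LPS, 22 to 24 and 19 to 21 against 1 μM, and 14 to 16 and 23 to 26 against control. With the replicate block the counts with LPS were 21 and 43, as without it, and no other count moved. Of 18 pairs of samples with the same number in 2 groups, 1 had deviations correlated over 0.1 (from -0.17 to 0.15). Pairs with different numbers ran from -0.17 to 0.20. With 3 libraries in a group this check cannot tell whether the numbers pair the samples. LOC115487417 lost its call for 10 μM against control at a pseudocount of 1 (0.55). Depth is unknown, so no limit of detection can be given.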
